A study of Homo sapiens with 24 samples.

Results

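The regions described here are the sites where the histone methyltransferase MLL4 was called without its partner UTX in the bladder cancer cell line UMUC1. The MLL4 peaks of 3 lines (WT, HEAA and EV) were merged into 1573 peaks. A merged peak was kept if it shared no base with any UTX peak of any line. This left 473 peaks (30.1%, 95% Wilson interval 27.9% to 32.4%), called members here, and 1100 MLL4 peaks with UTX, which served for comparison. The members were chosen by their calls in the MLL4 and UTX lists, so their line pattern, MLL4 strength and distance to UTX are descriptions without a test. The histone lists played no part in the choice.

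MLL4, also called KMT2D, is the catalytic subunit of an enhancer complex that places a single methyl group on lysine 4 of histone H3 (H3K4me1). UTX, also called KDM6A, is a subunit of the same complex and removes methyl groups from lysine 27 of histone H3 (H3K27me3), a mark of Polycomb repression. Acetylation of that lysine (H3K27ac) marks active enhancers and promoters. Active promoters commonly carry trimethylated rather than monomethylated H3K4 at their centre, a mark not analysed here. Both UTX and MLL4 are often mutated in bladder cancer.

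UMUC1 is an established human bladder cancer cell line. All 3 lines were stable, carried a pSIN vector with puromycin selection and were harvested 3 days after plating. WT cells expressed wild-type UTX. HEAA cells expressed UTX whose catalytic domain has both H1146A and E1148A, and EV cells carried the vector without UTX. The labels do not say whether a line was 1 clone. H3K27ac had 2 numbered libraries in each line, while MLL4, UTX, H3K4me1 and H3K27me3 had 1 list each per line.

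The MLL4 lists held 898 peaks in WT, 1125 in HEAA and 133 in EV, and the UTX lists 2566, 2855 and 31. Read depth is unknown for every list, and a peak absent from a list may lie below the caller's threshold. The MLL4 lists held 0 peaks on chromosomes 20, 21 and 22, where the UTX lists of WT and HEAA held 205 and 248 peaks and that of EV 1. The members therefore describe the remaining chromosomes. Positions are on hg19, counted from 1, and no region was assigned to a gene.

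A typical member was a short peak called in 1 line. The median width was 193 bp (143 to 1173) in members and 223 bp in MLL4 peaks with UTX. Of the 473 members, 361 were called in 1 line (76.3%), against 722 of the 1100 peaks with UTX (65.6%) and 68.8% of all merged MLL4 peaks. HEAA alone called 207 members (43.8%), WT alone 145 (30.7%) and EV alone 9 (1.90%). For peaks with UTX the shares were 39.7%, 25.1% and 0.818%. Members made up 32.1%, 34.4% and 50.0% of the merged MLL4 peaks of these patterns, against 30.1% of all merged MLL4 peaks. WT and HEAA without EV called 55 members (11.6%), against 321 peaks with UTX (29.2%), and 23.9% of all merged MLL4 peaks had this pattern. WT and EV without HEAA shared 7 members (1.48%), of 11 merged MLL4 peaks with this pattern. HEAA and EV without WT shared 8 members (1.69%), of 14 such merged peaks.

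A second kind of member was called with and without a UTX construct. All 3 lines called 42 members (8.88%, Wilson interval 6.64% to 11.8%), against 47 peaks with UTX (4.27%) and 5.66% of all merged MLL4 peaks. EV called 66 members (14.0%), against 66 peaks with UTX (6.0%) and 8.39% of all merged MLL4 peaks. Members thus made up 27.8% of the peaks in the WT list, 27.9% in the HEAA list and 50.4% in the EV list. Where a member was called in 2 lines, its summits lay close together, at a median distance of 22 bp between WT and HEAA (97 members), 29 bp between WT and EV (49) and 20 bp between HEAA and EV (50).

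**Figure D1:**
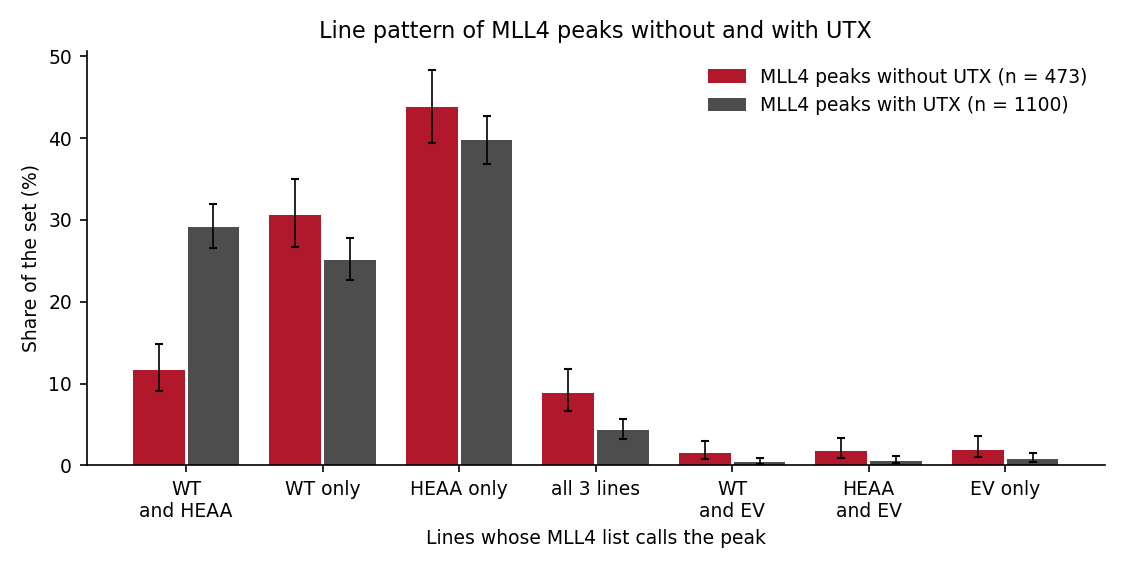
Share of the MLL4 peaks without UTX (red, n = 473) and with UTX (grey, n = 1100) that each combination of lines called, in percent of the set, with 95% Wilson intervals as error bars. WT and HEAA together called 11.6% of the peaks without UTX and 29.2% of those with UTX, while all 3 lines called 8.88% and 4.27%.

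Peak strength separated the EV list from the other lists. The caller's fold is the enrichment of a peak over its background, and the q-value its adjusted p-value, both the authors' own. Among the strongest 20% of peaks by q, members made up 19.6% in WT (35 of 179), 19.1% in HEAA (43 of 225) and 76.9% in EV (20 of 26). Among the weakest 20% they made up 34.4% in WT, 37.3% in HEAA and 37.0% in EV. The median fold of members was 5.78 in WT, 6.19 in HEAA and 7.14 in EV, and that of MLL4 peaks with UTX was 6.12, 6.55 and 6.93. In WT and HEAA members were thus a smaller share of the strongest peaks than of the whole list, and in EV a larger one.

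Members were ranked by their mean rank of fold within each line pattern. Of those called in all 3 lines, the first was the peak at 50328726 to 50329317 on chromosome 14, with 12.3-fold enrichment in WT, 9.12-fold in HEAA and 13.4-fold in EV. It was acetylated in all 6 H3K27ac libraries and had no H3K4me1 region in any line. The next, at 145398840 to 145399517 on chromosome 1, had 8.72-fold enrichment in WT, 11.1-fold in HEAA and 11.4-fold in EV, with H3K27ac in 4 libraries and no H3K4me1. The third, at 27636303 to 27636555 on chromosome 6 (10.7-fold in WT, 7.87-fold in HEAA and 9.49-fold in EV), overlapped no histone region of any kind. On chromosome 11 the peaks from 59317972 to 59318965 and from 59333656 to 59334021 were also among the 10 highest-ranked, and both were acetylated in all 6 libraries without H3K4me1. The peak at 27273593 to 27273842 on chromosome 2 (8.73-fold in WT, 11.1-fold in HEAA and 7.47-fold in EV) had H3K27ac in 5 libraries. All of the 10 highest-ranked members of this kind lacked H3K4me1 in all 3 lines, and 7 of the 10 were acetylated in all 6 libraries.

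Members of other line patterns were more varied. Among the 10 strongest members that WT and HEAA called and EV did not, 5 had no H3K4me1 in any line and 3 had it in all lines. At 28912291 to 28912469 on chromosome 6, a peak with 8.90-fold enrichment in WT and 9.84-fold in HEAA was acetylated in 1 library, the HEAA library numbered 1. The peak at 56584058 to 56584329 on chromosome 12, with folds of 8.04 in WT and 8.47 in HEAA, was acetylated in all 6 libraries. The peak at 61394250 to 61394515 on chromosome 11, with folds of 8.66 in WT and 7.36 in HEAA, had both marks in every library. Of the 5 strongest members called in WT alone, 4 lacked H3K4me1 in all lines, as did 1 of the 5 called in HEAA alone and 3 of the 5 called in EV alone. These few peaks do not stand for their patterns. Over all members of WT alone, 36 of 145 lacked H3K4me1 in all lines (24.8%). For HEAA alone it was 45 of 207 (21.7%), and for EV alone 5 of 9. The strongest of EV alone lay on chromosome 1 from 16872394 to 16872579 (12.3-fold in EV) and overlapped no histone region in any library.

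A further 9 members had a low fold and a very small q. Their fold lay between 1.76 and 2.04 in WT, 1.73 and 2.13 in HEAA, and 2.05 and 2.68 in EV, while all other members had a fold above 3 in at least 1 list. Their median −log10 q was 12.8 in WT, 12.05 in HEAA and 19.6 in EV, and 1 of them held the smallest q of the whole EV list. All 9 were called in all 3 lines. They lay on chromosome 1 from 121484419 to 121485461, on chromosome 6 between 58776456 and 58779320 (3 peaks), on chromosome 7 between 61968794 and 61970460 (2 peaks) and on chromosome 16 between 46391879 and 46403812 (3 peaks). On each of these chromosomes they lay inside or within 0.041 kb of the longest stretch without a histone region of any library, such as 121316463 to 142913872 on chromosome 1 (21.6 Mb). No other member and 0 of the 1100 MLL4 peaks with UTX lay in or within 1 kb of such a stretch. Without these 9, all 3 lines called 33 of 464 members (7.11%) and 5.12% of all merged MLL4 peaks, and EV called 57 members (12.3%) and 7.86% of all merged MLL4 peaks. They also held 7 of the 20 member places in the strongest 20% of the EV list by q. With them removed from the lists, members made up 16.9% of the strongest 20% in WT (30 of 177), 16.6% in HEAA (37 of 223) and 62.5% in EV (15 of 24).

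**Figure D2:**
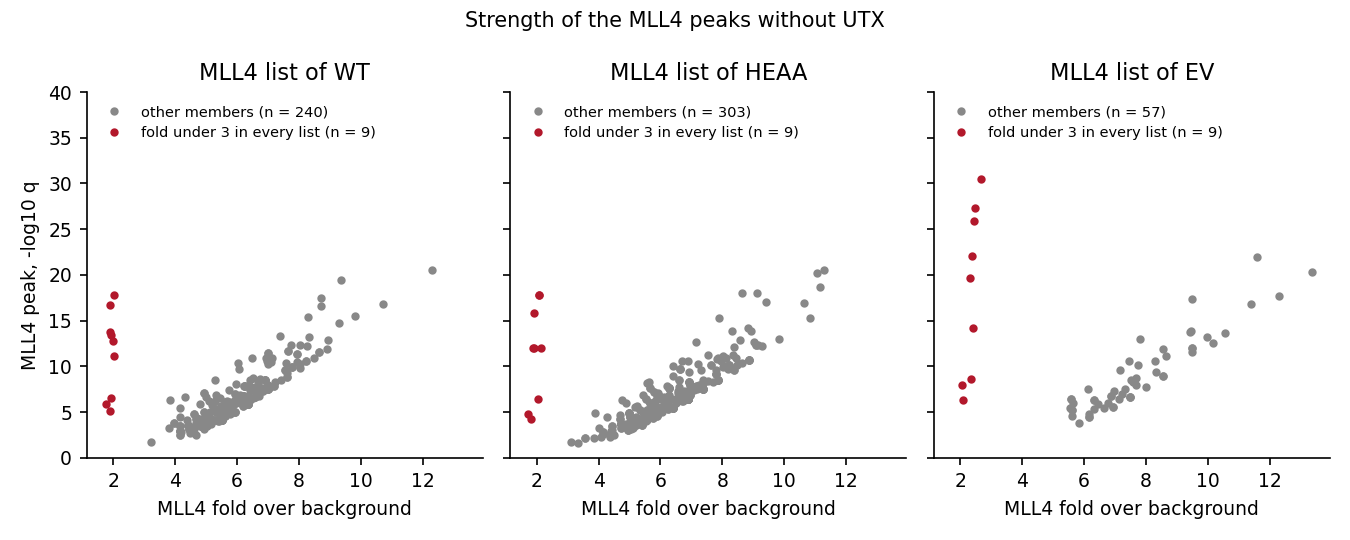
MLL4 fold over background (x axis) against −log10 q (y axis) for the members called in the MLL4 lists of WT, HEAA and EV, 1 point per peak. The 9 members with a fold under 3 in every list (red) stand apart at the left, at 1.73-fold to 2.68-fold, and reach the highest −log10 q of the members in EV.

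Most members were acetylated, less often than MLL4 peaks with UTX. An H3K27ac region overlapped 84.4% and 60.3% of members in WT (libraries 1 and 2), 85.0% and 51.8% in HEAA, and 81.6% and 71.0% in EV. At MLL4 peaks with UTX these shares were 96.3% and 80.1% in WT, 96.5% and 74.2% in HEAA, and 92.6% and 88.1% in EV. Members were lower in all 6 libraries. The mean was 72.3% ± 13.9 at members and 88.0% ± 9.13 at MLL4 peaks with UTX (SD, n = 6 libraries each), a difference of −15.6 points. The exact sign-flip permutation test over the 6 libraries gave a two-sided p of 0.03125, the smallest that 6 libraries allow (n = 6). It was 0.1875 after Benjamini-Hochberg adjustment over the 6 H3K27ac tests, which does not pass 0.05. After adjustment, no outcome of these 6 libraries could have passed 0.05. When MLL4 peaks with UTX were weighted to the line patterns of the members, the difference was −14.9 points, and without the 9 low-fold members it was −14.2 points.

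**Figure D3:**
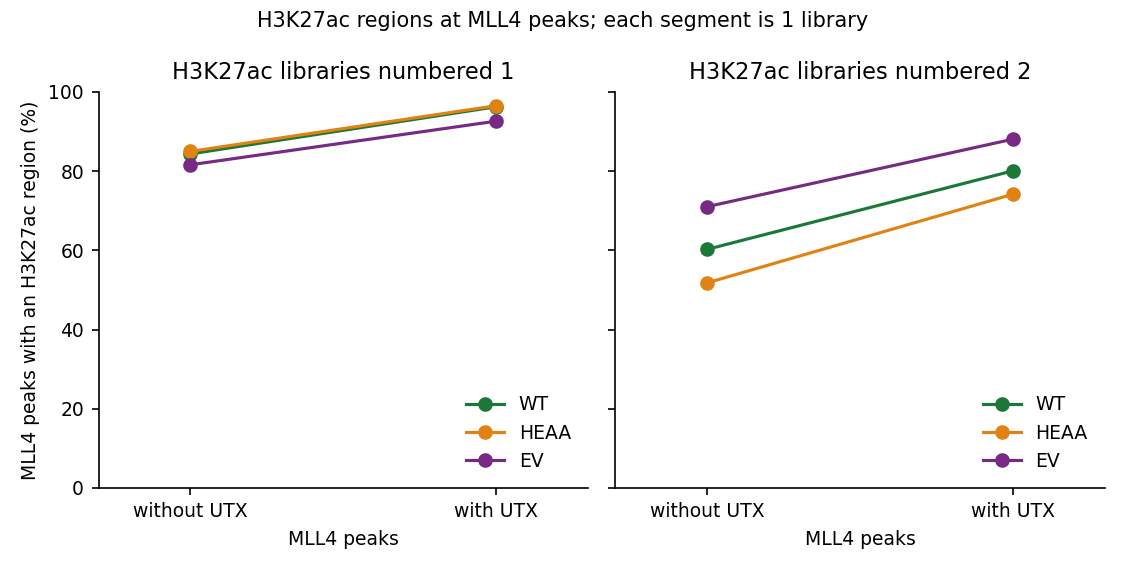
Share of MLL4 peaks without and with UTX that overlap an H3K27ac region, in percent, for the H3K27ac libraries numbered 1 (left) and 2 (right). Each segment joins the shares of 1 library of WT, HEAA or EV; all 6 are lower at the peaks without UTX (51.8% to 85.0%) than at those with UTX (74.2% to 96.5%).

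Acetylation of the members did not differ between lines beyond the spread of the libraries. The 4 WT and HEAA libraries averaged 70.3% ± 16.9 and the 2 EV libraries 76.3% ± 7.47 (SD), a difference of −5.97 points (exact permutation test over 15 arrangements, two-sided p = 0.733, adjusted p = 1; smallest possible 0.0667). The differences were −4.02 points for WT minus EV, −7.93 points for HEAA minus EV and 3.91 points for WT minus HEAA (n = 2 each, exact permutation p = 1 for all of them; smallest possible 0.333). Neither design can reach 0.05. Within the libraries numbered 1, WT and HEAA minus EV was 3.07 points, and within those numbered 2 it was −15.0 points. The H3K27ac lists covered 96.0 Mb in WT, 110.5 Mb in HEAA and 88.1 Mb in EV in the libraries numbered 1, and 55.3, 48.3 and 71.7 Mb in those numbered 2. The order of the members' shares was that of the covered lengths in both numbers. In an alternative, each H3K27ac list was cut to its 37298 strongest regions by q, the number in the shortest list. This equalised the number of regions and not the covered length. The differences were then −5.18 points for WT and HEAA minus EV and −3.28 for WT minus EV. They were −7.08 for HEAA minus EV and 3.81 for WT minus HEAA. The gap between members and peaks with UTX was −16.4 points ± 5.51 in WT and HEAA (4 libraries) and −14.0 points ± 4.26 in EV (2 libraries). Its difference of −2.38 points had an exact permutation p of 0.467 (smallest possible 0.0667). That difference was −0.707 points within the libraries numbered 1 and −4.06 points within those numbered 2.

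Counted peak by peak, 217 members were acetylated in all 6 libraries (45.9%), against 754 peaks with UTX (68.5%) and 64.3% of all 4162 merged UTX and MLL4 sites. H3K27ac was found in no library at 47 members (9.94%), against 11 peaks with UTX (1.00%) and 4.95% of all sites. These 47 were not spread evenly over the members, since 21 of them lay between 25 and 30 Mb on chromosome 6. Of the 47, 13 were called in all 3 lines, and without the 9 low-fold members 4 of these 13 remained. Acetylation in the 4 WT and HEAA libraries together with its absence from EV was found at 0 members (0.144% of all sites), and acetylation in the 2 EV libraries alone at 3 (0.168% of all sites). Acetylated members lay in narrower regions. In the WT library numbered 1 the median width of the H3K27ac region was 2791 bp at members and 3912 bp at MLL4 peaks with UTX, in the HEAA library numbered 1 it was 2921 and 4432 bp, and in the EV library numbered 1 it was 2656 and 3899 bp. All regions of these lists had median widths of 1072, 1013 and 1009 bp.

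H3K4me1, the product of MLL4, overlapped somewhat more than 50% of the members in each line. The share was 51.6% in WT (Wilson interval 47.1% to 56.1%), 53.9% in HEAA (49.4% to 58.4%) and 57.5% in EV (53.0% to 61.9%). At MLL4 peaks with UTX it was 55.3% in WT, 57.2% in HEAA and 67.0% in EV. The difference between members and peaks with UTX was −3.69 points in WT (95% interval −9.05 to 1.67), −3.27 points in HEAA (−8.63 to 2.06) and −9.49 points in EV (−14.7 to −4.28). With 1 list per line these intervals cover counting error over peaks only, and there is no replicate test.

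H3K4me1 was called at fewer members in WT and in HEAA than in EV, as it was at peaks with UTX and over all sites. The H3K4me1 lists covered 178.7 Mb in WT, 186.3 Mb in HEAA and 157.3 Mb in EV. WT minus EV was −5.92 points (interval −9.38 to −2.02), with 27 members marked in WT and not in EV (5.71%) against 55 with the reverse (11.6%). Over all sites these patterns were found at 6.49% and 14.9%. HEAA minus EV was −3.59 points (−6.86 to −0.00297), with 25 against 42 members, and 6.90% and 13.9% of all sites. At MLL4 peaks with UTX the same differences were −11.7 points for WT minus EV (−14.4 to −8.84) and −9.82 points for HEAA minus EV (−12.4 to −6.97). Over all sites they were −8.43 points for WT minus EV and −7.02 points for HEAA minus EV. Whether the change differs between members and peaks with UTX was not tested.

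The H3K4me1 share depended on the line pattern of MLL4. At the 42 members called in all 3 lines, an H3K4me1 region was found at 5 in WT (11.9%, interval 5.19% to 25.0%), 3 in HEAA (7.14%, 2.46% to 19.0%) and 4 in EV (9.52%, 3.77% to 22.1%). At the 47 MLL4 peaks with UTX called in all 3 lines it was found at 29 in WT, 35 in HEAA and 34 in EV (61.7%, 74.5% and 72.3%). At the 55 members called in WT and HEAA it was found at 18 in WT, 17 in HEAA and 21 in EV, and at 178, 177 and 216 of the 321 peaks with UTX of this pattern. At the 352 members called in WT alone or HEAA alone the shares were 61.4% in WT, 64.8% in HEAA and 68.2% in EV, and at the 713 peaks with UTX of these patterns they were 54.8%, 56.7% and 66.5%. The gap in H3K4me1 was thus wide at peaks called repeatedly, while at the pooled peaks of WT alone or HEAA alone the members' share was not below that of the peaks with UTX. Within the peaks of WT alone, it was below it in the EV list, with 95 of 145 members (65.5%) against 185 of 276 peaks with UTX (67.0%).

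**Figure D4:**
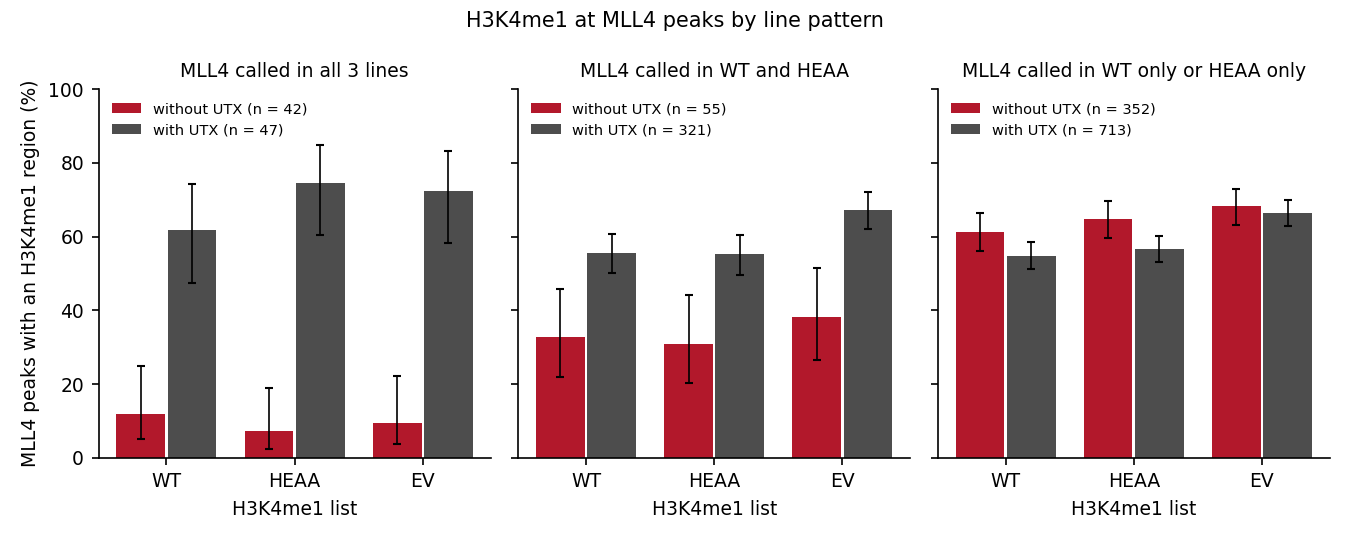
Share of MLL4 peaks without UTX (red) and with UTX (grey) that overlap an H3K4me1 region of WT, HEAA or EV, in percent, with 95% Wilson intervals, split by the lines whose MLL4 list calls the peak. At peaks called in all 3 lines, 7.14% to 11.9% of those without UTX and 61.7% to 74.5% of those with UTX had H3K4me1.

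Of the 42 members called in all 3 lines, 36 had no H3K4me1 in any line. Acetylation was found in all 6 libraries at 18 of the 42, against 39 of the 47 peaks with UTX of this pattern. All 18 of these members lacked H3K4me1 in every line, as did 3 of these 39 peaks with UTX. Without the 9 low-fold members, 27 of the remaining 33 had no H3K4me1 in any line, and H3K4me1 was found at 5 in WT, 3 in HEAA and 4 in EV. H3K27ac was found at 26 and 22 of these 33 in WT, 27 and 19 in HEAA, and 26 and 27 in EV (libraries 1 and 2). Over all members, 164 had no H3K4me1 in any line (34.7%), against 245 peaks with UTX (22.3%) and 16.2% of all sites. Acetylation in all 6 libraries was found at 75 of the 164 members and at 165 of the 245 peaks with UTX. This state was thus not particular to the members. Neither H3K27ac nor H3K4me1 was found in any library at 33 members (6.98%) and 3 peaks with UTX (0.273%). Of these 33 members, 11 were called in all 3 lines, and without the 9 low-fold members 2 of the 11 remained.

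The distribution of H3K4me1 around the peaks differed in the depth of its dip and the height of its shoulders. Peaks with UTX had a dip at the midpoint, where 41.8% lay inside an H3K4me1 region in WT, 43.6% in HEAA and 53.0% in EV, and shoulders at 500 bp, where 93.3%, 93.5% and 94.5% of positions lay inside one. Members had a shallower dip, with 47.6% in WT, 49.5% in HEAA and 51.6% in EV at the midpoint, and 67.7%, 68.0% and 70.8% at 500 bp. At the midpoint members were thus above peaks with UTX in WT and HEAA and below them in EV, and at 500 bp they were below them in all lines. The 42 members called in all 3 lines had 7.14% in WT, 2.38% in HEAA and 0.00% in EV at the midpoint and 9.52%, 9.52% and 16.7% at 500 bp. Without the 9 low-fold members, the other 33 had 9.09% in WT, 3.03% in HEAA and 0.00% in EV at the midpoint and 12.1%, 12.1% and 21.2% at 500 bp. When a region within 1 kb counted, 88.4% of all members had H3K4me1 in WT, 87.9% in HEAA and 92.6% in EV, against 99.9%, 99.9% and 100.0% of peaks with UTX. Of the 42 members called in all 3 lines, 50.0% had a region within 1 kb in WT, 50.0% in HEAA and 64.3% in EV, and of the 33 without the low-fold members 63.6%, 63.6% and 81.8%.

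**Figure D5:**
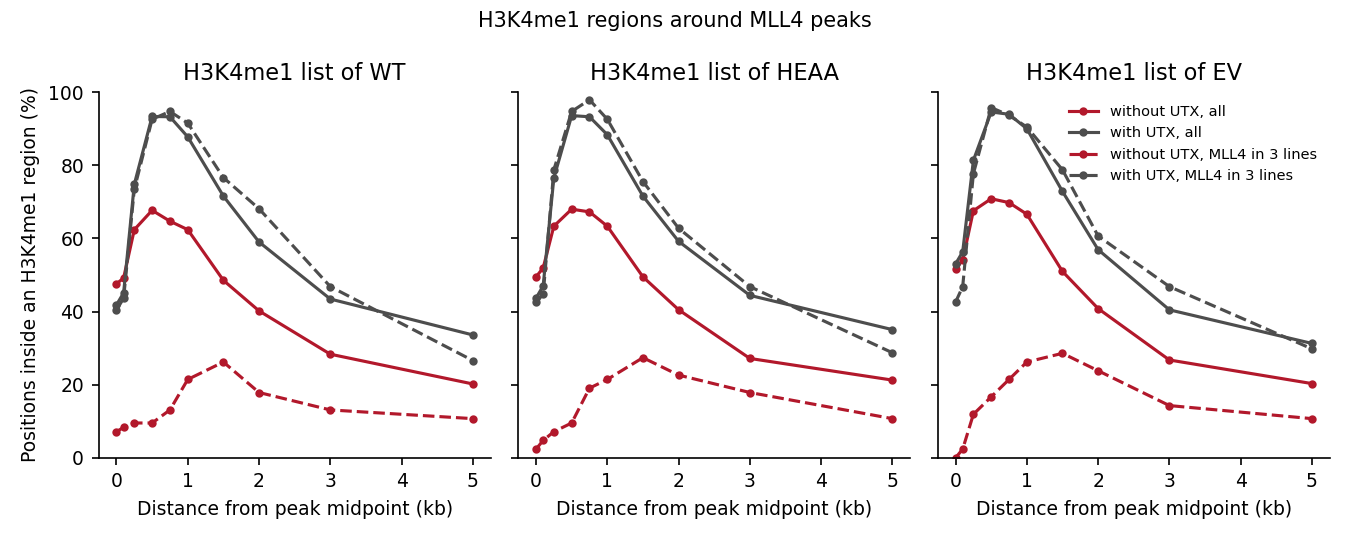
Share of positions inside an H3K4me1 region (y axis, percent) against the distance from the midpoint of the MLL4 peak (x axis, kb, both sides pooled), for the H3K4me1 lists of WT, HEAA and EV. Solid lines are all MLL4 peaks without UTX (red) and with UTX (grey), dashed lines those called in all 3 lines. At 500 bp, 67.7% to 70.8% of positions lay inside a region for solid red and 93.3% to 94.5% for solid grey. The dashed red peaks had 9.52% to 16.7% and the dashed grey peaks 92.6% to 95.7%.

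H3K27me3, the mark that UTX removes, was called at almost no member. An H3K27me3 region overlapped 0 of 473 members in WT (Wilson interval 0% to 0.806%), 0 in HEAA and 1 in EV (0.211%). MLL4 peaks with UTX had 0 in each line. The 1 member was the low-fold peak on chromosome 16 from 46403570 to 46403812.

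The distance from members to UTX varied widely, and the rule itself excluded overlap. The median distance to the nearest UTX peak of any line was 208 kb. Whether this distance differs from that of other positions in the genome was not tested. There were 9 members within 1 kb of a UTX peak, 36 at 1 to 10 kb, 125 at 10 to 100 kb and 303 at 100 kb or more (64.1%). The 42 members called in all 3 lines were all at least 10 kb away, and 32 of them at least 100 kb (23 of the 33 without the low-fold members). The members nearest to UTX lay 2 bp away on chromosome 9 (132096699 to 132096891, HEAA alone), 13 bp away on chromosome 1 (225942718 to 225942882, EV alone) and 28 bp away on chromosome 19 (54125697 to 54125889, WT and HEAA). Just outside the rule, the smallest overlap with UTX was 5 bp on chromosome 1 (151520158 to 151520322, HEAA alone), followed by 14 and 41 bp at 2 peaks on chromosome 14.

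Members were unevenly spread. Of the 473, 85 (18.0%) lay within 10 kb of another member, in 33 clusters, against 101 of the 1100 peaks with UTX (9.18%) in 49 clusters. Members made up 57.8% of the MLL4 peaks on chromosome 6 (48 of 83, Wilson interval 47.1% to 67.9%) and 46.6% on chromosome 17 (41 of 88, 36.5% to 56.9%), and 12.5% on chromosome 18 (2 of 16).

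The densest window held 36 members (7.61% of all) between 25 and 30 Mb on chromosome 6, from 26311904 to 28950167. It held 0 MLL4 peaks with UTX and 0 UTX peaks of any line. These 36 had few marks. H3K27ac was found in no library at 21 of them, and 29 had no H3K4me1 in any line. H3K27ac was found at 9 and 6 in WT, 13 and 3 in HEAA, and 10 and 9 in EV (libraries 1 and 2). WT called 21 of the 36, HEAA 22 and EV 4. Of the clusters, 2 with 5 peaks each lay in this window, from 26311904 to 26330633 and from 28908794 to 28921170. Without chromosome 6 the H3K27ac difference between members and MLL4 peaks with UTX was −11.0 points, and H3K4me1 at the members called in all 3 lines was 13.5% in WT, 8.11% in HEAA and 10.8% in EV.

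Clusters elsewhere ranged from full acetylation to none. The 5 peaks on chromosome 11 from 59317972 to 59334021 were called in WT at 4, HEAA at 5 and EV at 4, and 4 of the 5 were acetylated in all 6 libraries. On chromosome 1 the 4 peaks from 145395473 to 145399517 and the 4 from 161493604 to 161510215 all lacked H3K4me1 in every line, and each peak was acetylated in at least 1 library. In all 6 libraries, 2 of the first cluster and 0 of the second were acetylated. On chromosome 17, 4 peaks from 8022287 to 8024369 and 3 from 73029887 to 73031405 formed clusters, and all 3 of the second were acetylated in all 6 libraries without H3K4me1. Of 3 peaks on chromosome 5 from 140090790 to 140105943, 1 was acetylated in all 6 libraries and 1 in none. The low-fold members formed 2 clusters of 3 peaks, from 46391879 to 46403812 on chromosome 16 and from 58776456 to 58779320 on chromosome 6, with no H3K27ac in any library.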

How the data were processed

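ChIP-seq peak lists of UMUC1 lines were used: 18 of 24 samples had a list, and the 6 inputs were left out. Per the labels' protocols, micrococcal nuclease and sonication fragmented the chromatin of UTX and MLL4, and sonication that of the histone marks. MACS2 and the builds hg19 and GRCh37 are named in the submitters' processing notes. Its version, the aligner and read filters were not given in the sources used here. For each peak, the authors deposited a fold over background (a linear ratio), the −log10 of its p-value and of its q-value, and a score, which was not used. Fold and q only described, ranked or filtered peaks within a list. Depth is unknown, since the lists hold no read counts.

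Chromosome names were brought to one form, MLL4 peaks of the 3 lines were merged, and regions overlapped at 1 bp or more, with custom code in Python 3.11.15, NumPy 2.4.6 and SciPy 1.17.1 that was tested on simulated data. Figures were drawn with matplotlib 3.10.9. Shares have 95% Wilson intervals. Differences of shares between members and peaks with UTX have Newcombe intervals. Differences between lines over the same peaks have exact binomial intervals, taken from the peaks marked in only 1 of the 2 lines. All of these intervals cover counting error only. For H3K27ac, shares per library entered exact permutation and sign-flip tests, two-sided and adjusted over 6 tests. The labels do not say that numbered libraries came from separate cultures, so these p-values measure only the spread between the libraries, which may be technical. Percentages over all sites refer to the 4162 merged UTX and MLL4 sites and include the members.

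Named regions follow a rule: by mean rank of fold within a line pattern, up to 10 for all lines and for WT and HEAA, 5 for each line alone, and 5 with H3K27me3, without H3K27ac or widest, with the 3 nearest on each side of the UTX rule. The low-fold members, the densest window and the clusters were chosen after their values were seen. The members and lists were chosen with earlier results of these data known. No genome or annotation of the build was used, so genes and sequences are not given. Alternatives covered q thresholds, overlap rules, list length, line patterns and replicates.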

Additional observations from a re-analysis of the deposited data

Results flagged for a closer look

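The difference in H3K27ac share at the members between WT and HEAA (mean of both lines) and EV had opposite signs in the libraries of either number. It was 3.07 points in the libraries numbered 1, where both WT and HEAA lay above EV, and −15.0 points in those numbered 2, where both lay below EV. At MLL4 peaks with UTX the values were 3.77 and −11.0 points. The difference between the numbers was not tested.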

How the results depend on the processing

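In 200 of 238 alternative values, a tested difference kept its sign and its side of the threshold, an untested share or difference stayed within its 95% interval, or a count stayed within 1.5 times. For the H3K27ac tests the number of libraries fixed the side of the threshold, so only the sign could change. The H3K27ac difference between members and MLL4 peaks with UTX stayed below 0 in all 21 alternatives. It ran from −28.9 points (EV MLL4 list) to −10.5 points (region within 1 kb), with exact sign-flip p between 0.03125 and 0.5. No H3K27ac test passed 0.05 after adjustment in any alternative, but with so few libraries none could. The H3K4me1 difference between members and MLL4 peaks with UTX depended on the rule and the peaks. Without peaks called in all 3 lines it was 0.467 points in WT, 2.06 in HEAA and −4.58 in EV (interval −10.0 to 0.733), and without chromosome 6 it was −0.292, −0.0519 and −6.62. In WT, HEAA and EV it was −33.8, −37.1 and −42.7 points for peaks called in at least 2 lines, −36.6, −36.6 and −44.1 points for the EV MLL4 list, and 5.75, 5.84 and −1.41 points for a region over the midpoint. With a region within 1 kb it was −11.5 points in WT and −12.0 in HEAA. It was −15.4 points in EV with stricter MLL4 and UTX peaks (−log10 q of at least 5), and −10.3 in HEAA and −15.8 in EV with equally strict histone regions; the cause was not tested. The EV MLL4 list alone gave 67 members (50.4%), an H3K4me1 difference of 0 points for WT minus EV and 1.49 points for HEAA minus EV, and H3K27me3 in EV at 1.49%. The H3K27me3 share in EV became 0 with stricter histone regions, without the low-fold members and without peaks called in all 3 lines, since each removes the only marked member or its region. Alternatives without chromosome 6, without low-fold members and without peaks called in all 3 lines were chosen after seeing the data.

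Leaving out 1 H3K27ac library at a time gave −11.3 to 0.211 points for WT and HEAA minus EV, −16.1 to 8.03 for WT minus EV, −24.5 to 8.67 for HEAA minus EV, −12.7 to 20.5 for WT minus HEAA, −16.6 to −14.3 for members minus peaks with UTX, and −5.39 to 0.631 for the change of that gap between WT and HEAA and EV. The sign turned without the EV library numbered 1, the WT library numbered 1 or 2, or the HEAA library numbered 2. With 5 libraries the smallest p for members minus peaks with UTX is 0.0625. With the numbers as a replicate block, the differences were as reported. They were −5.97 points for WT and HEAA minus EV (exact p = 0.556) and −15.6 points for members minus peaks with UTX (p = 0.5). The change of that gap between WT and HEAA and EV was −2.38 points (exact permutation p = 0.111, the smallest this block allows, adjusted p = 0.667). Same-numbered libraries deviated together over 81809 merged regions (correlation 0.206 for WT and EV, 0.176 for HEAA and EV, 0.328 for WT and HEAA), but nothing in the labels says that the numbers pair the libraries. Unknown depth limits every share: a missing region may be one below the caller's threshold.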
